A study of Mus musculus with 14 samples.

Results

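The genes described here encode the oxidative phosphorylation machinery of mitochondria. They were taken as every probe set annotated with a single gene whose symbol begins with Nduf, Sdha, Sdhb, Sdhc, Sdhd, Uqcr, Cox4, Cox5, Cox6, Cox7, Cox8 or Atp5. This rule found 100 probe sets of 73 genes among the 12488 probe sets of a mouse Affymetrix array, of which 10855 were annotated with a single gene (8252 genes). Complex I held 42 probe sets of 31 genes, complex II 6 of 6 genes, complex III 7 of 7 genes, complex IV 23 of 15 genes and complex V 22 of 14 genes. A few of these genes encode assembly factors rather than subunits, namely 2 in complex I and 2 in complex II. Cox7a2l, counted in complex IV, was classed as a supercomplex factor rather than a subunit.

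The study compared lymph nodes of mice with the Atm gene, Atm+/+ (called WT), and without it, Atm-/- (called KO). ATM is the kinase that signals DNA double-strand breaks. Each genotype had 3 untreated arrays (replicates A, B and C), 2 arrays at 30 min and 2 arrays at 120 min after IR, ionizing radiation, which makes 14 arrays in 6 groups. The labels give no strain, age, radiation dose, node position or number of animals per array, and do not say that replicates came from separate animals, so p-values measure only the spread between these samples, which may be technical.

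Oxidative phosphorylation couples electron transport to the making of ATP. Complex I takes electrons from NADH and complex II from succinate, complex III passes them to cytochrome c, and complex IV, cytochrome c oxidase, hands them to oxygen. Complexes I, III and IV pump protons, and complex V, ATP synthase, lets the protons flow back to make ATP. Several complex IV subunits exist as a ubiquitous form and a form of heart and skeletal muscle: Cox6a1 and Cox6a2, Cox7a2 and Cox7a1, Cox8a and Cox8b. Cox7a1 and Cox8b are also known from brown fat.

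The subunits are scattered over the genome, and many of their promoters are known to be bound by NRF1, by the ETS factor GABP (also called NRF2) and by YY1. Promoter windows of 300 bases (250 before to 50 after the annotated start, RefSeq, build GRCm38.p6) were matched for 60 of the 73 genes. The NRF1 letters GCGCNTGCG were found, on either strand, in 19 of these 60 genes (31.7%). They were found in 13.3% of the 6573 matched genes of the array and in 7.12% of all 27025 genes. The ETS letters CCGGAAG were found in 18 of 60 (30.0%), against 17.1% of genes of the array and 9.93% of all genes. The YY1 letters AAGATGGCG were found in 5 of 60 (8.33%), against 2.97% and 1.64%. Genes with the NRF1 letters, the ETS letters or both numbered 31 of 60, and those with both numbered 6. Complex V had the NRF1 letters in 7 of its 12 matched genes, complex III in 3 of 4, complex II in 2 of 5, complex I in 6 of 28 and complex IV in 1 of 11. The nuclear receptor letters AAGGTCA were found in 5 of 60 (8.33%, against 4.38% of genes of the array and 5.38% of all). The E-box letters CAGCTG, of the kind bound by the muscle factor MyoD, were found in 4 of 60 (6.67%, against 17.9% and 18.3%), and the TATA box letters TATAAA in 6 of 60 (against 12.2% and 15.7%). The letters of different motifs do not overlap in the windows printed below, and a match is a description of the sequence only.

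**Figure D1:**
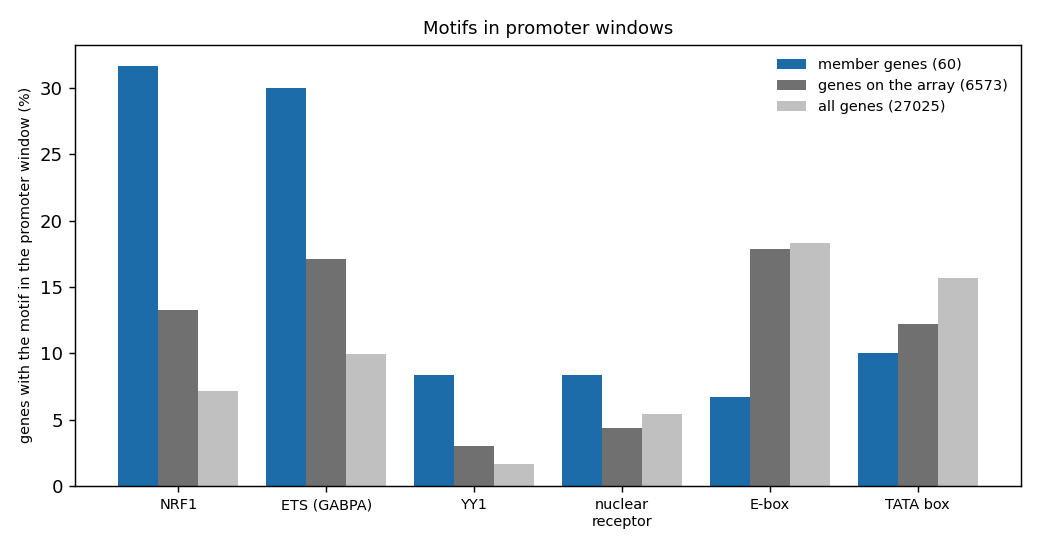
Share of genes (vertical axis, percent) whose promoter window holds the letters of each of 6 motifs on either strand, for the 60 matched oxidative phosphorylation genes, the 6573 matched genes of the array and all 27025 genes. The NRF1 share is 31.7% in the oxidative phosphorylation genes and 13.3% in the genes of the array, and the E-box share is 6.67% and 17.9%.

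The promoters of muscle and ubiquitous forms of complex IV subunits are shown because the results set these forms against each other. The 4 windows are Cox6a1 (ubiquitous, chr5:115348909-115349208, minus strand), Cox7a2 (ubiquitous, chr9:79759804-79760103, minus strand), Cox7a1 (muscle, chr7:30183921-30184220, plus strand) and Cox8b (muscle, chr7:140900397-140900696, minus strand). Each is written 5′ to 3′ with the letters of any of the 6 motifs in capitals.
Cox6a1: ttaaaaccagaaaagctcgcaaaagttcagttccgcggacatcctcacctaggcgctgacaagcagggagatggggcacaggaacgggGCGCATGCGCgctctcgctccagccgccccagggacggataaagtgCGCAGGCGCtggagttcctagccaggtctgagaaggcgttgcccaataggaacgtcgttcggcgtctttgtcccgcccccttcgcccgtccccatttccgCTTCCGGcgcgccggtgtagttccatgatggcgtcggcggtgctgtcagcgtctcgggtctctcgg
Cox7a2: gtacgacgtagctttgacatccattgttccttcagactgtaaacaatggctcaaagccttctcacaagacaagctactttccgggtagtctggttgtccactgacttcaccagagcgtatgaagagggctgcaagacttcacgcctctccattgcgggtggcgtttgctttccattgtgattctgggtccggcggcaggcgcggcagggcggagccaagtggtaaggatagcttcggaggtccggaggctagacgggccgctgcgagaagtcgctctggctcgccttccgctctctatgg
Cox7a1: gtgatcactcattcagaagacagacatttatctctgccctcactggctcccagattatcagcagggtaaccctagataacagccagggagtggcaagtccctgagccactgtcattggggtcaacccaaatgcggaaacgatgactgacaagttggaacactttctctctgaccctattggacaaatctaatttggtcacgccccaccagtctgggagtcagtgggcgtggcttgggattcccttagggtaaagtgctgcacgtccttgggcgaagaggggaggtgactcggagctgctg
Cox8b: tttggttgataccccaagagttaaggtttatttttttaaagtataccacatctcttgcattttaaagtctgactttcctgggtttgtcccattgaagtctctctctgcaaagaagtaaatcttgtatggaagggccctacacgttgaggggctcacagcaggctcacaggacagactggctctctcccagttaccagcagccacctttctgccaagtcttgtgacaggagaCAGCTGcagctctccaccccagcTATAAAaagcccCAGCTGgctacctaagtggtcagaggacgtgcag
Of these, Cox6a1 holds overlapping NRF1 matches from base 89 and base 90, another from base 135, and the ETS letters from base 235. Cox8b holds the E-box letters from base 232 and from base 267 and the TATA box letters from base 255. Cox7a2 and Cox7a1 hold none of the 6. Cox6a2 and Atp5mpl are named without a sequence.

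Values were tested with limma after quantile normalization on the scale log2(value + 32). On this scale a difference of 1 is a doubling of value + 32, and the change of dim probe sets is understated. A probe set was tested if on at least 2 arrays its value exceeded the 40th percentile of that array. This left 8938 probe sets in all and 82 of the 100 described here, of 70 genes. The other 18 were dim on nearly every array. They included the only probe sets of Cox8a (2.3 to 17.7 intensity units over the 14 arrays), Ndufa12 (8.3 to 46.8) and Atp5j2 (11.5 to 69.6). In complexes I to V, 33, 6, 7, 18 and 18 probe sets were tested. Called means a Benjamini-Hochberg adjusted p under 0.05 over all 8938.

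The arrays held B cell transcripts (13 of 13 markers on the array were tested) and T cell transcripts (12 of 14), as lymph node does. They also held transcripts of salivary gland, skeletal muscle and fat in amounts that differed between arrays. The summed intensity of the 33 skeletal muscle markers on the array was 13415.9 and 16032.7 on KO untreated A and C, against 2002.2 to 5557.3 on the other 12 arrays. The sum of 12 salivary gland markers ranged from 62592.7 to 106888.3 on the deposited scale, against 1724.0 to 3567.4 for the B cell markers. After quantile normalization the salivary mean ranged only from 12.08 to 12.26 log2 units. Prol1, from the salivary list, gave the highest value of all on WT untreated A (10589.0) and KO 30 min A (15198.3). Which cell types the oxidative phosphorylation values came from was not tested. The B cell sum was 1724.0 to 1746.9 at 120 min in WT, against 2513.1 to 3252.5 in untreated WT. In such bulk samples, fewer cells of a type and less RNA per cell cannot be told apart. The Atm probe set read 5.5 to 55.9 on the WT arrays and 7.5 to 44.0 on the KO arrays, so it does not check the genotype labels.

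Over the tested members of the 5 complexes, irradiation was followed by small differences, and 1 of the 82 probe sets, Atp5mpl, was called. At 120 min in WT, 58 of 82 (70.7%) lay below 0 with a median log2 difference of -0.13, against 50.6% and a median of -0.0045 for all 8938 probe sets. At unadjusted p under 0.05, 8 of 82 were lower and 1 was higher, against 358 lower and 416 higher among all. Of the 82, 20 had both irradiated values below all untreated values and 4 had both above, against 1220 and 1192 of all. The share of all probe sets called in this comparison was 0.515% (46 of 8938), so the single call among 82 is close to that background. Without any one array, the median stayed between -0.145 and -0.123. It was -0.043 with the mean of the brown fat markers Ucp1 and Cidea as a covariate.

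At 30 min in WT, the members were split evenly, with 40 of 82 below 0 and a median of 0.014. None was called by limma, against 0.101% of all probe sets (9 of 8938), and 2 were higher and 1 lower at unadjusted p under 0.05, against 224 and 225 of all. The 2 arrays of this group lay on different sides. Without WT 30 min B, 56 of 82 lay below 0 with a median of -0.10, and without WT 30 min A the median was 0.15.

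In KO, no member was called at either time, and no probe set of any kind was (0% of 8938 at 30 min and 0% at 120 min). At 30 min, 56 of 82 (68.3%) lay below 0 with a median of -0.13, and 5 were lower and 0 higher at unadjusted p under 0.05. Among all probe sets, 405 were lower and 344 higher at that level. Without KO 30 min A, 53 of 81 lay below 0 and the median was -0.053. At 120 min, 57 of 82 (69.5%) lay below 0 with a median of -0.16, and 6 were lower and 0 higher at unadjusted p under 0.05, against 325 and 320 of all. The shift at 120 min rested on 1 array. Without KO 120 min A, 41 of 82 lay below 0 and the median was 0.0019. That array was the lowest of the 14 for 23 of the 82 probe sets (28.0%), against 9.29% of all probe sets.

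Between untreated KO and WT nodes no difference of a member was called. The median of the members was 0.054, 32 of 82 lay below 0, and the share of all probe sets called was 0% of 8938. At unadjusted p under 0.05, 2 members were higher and 3 lower in KO, against 267 and 223 of all. Averaged over the 3 conditions, no member was called against 0.168% of all probe sets (15 of 8938), the median was 0.0038, and 2 were higher and 1 lower at unadjusted p under 0.05, against 268 and 308 of all.

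The KO response minus the WT response at 30 min lay below 0 in 61 of 82 (74.4%), with a median of -0.16. No member was called in this test of the difference, against 0.0783% of all probe sets (7 of 8938). At unadjusted p under 0.05, 2 members were below 0 and 1 above, against 252 and 248 of all. Without WT 30 min B, the count was 46 of 82 and the median -0.036. That array was the highest of the 14 for 19 of the 82 (23.2%), against 7.57% of all. At 120 min the corresponding count was 40 of 82, the median was 0.0078 and no member was called, against 0.134% of all (12 of 8938), with 1 member above and 1 below 0 at unadjusted p under 0.05, against 315 and 310 of all.

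**Figure D2:**
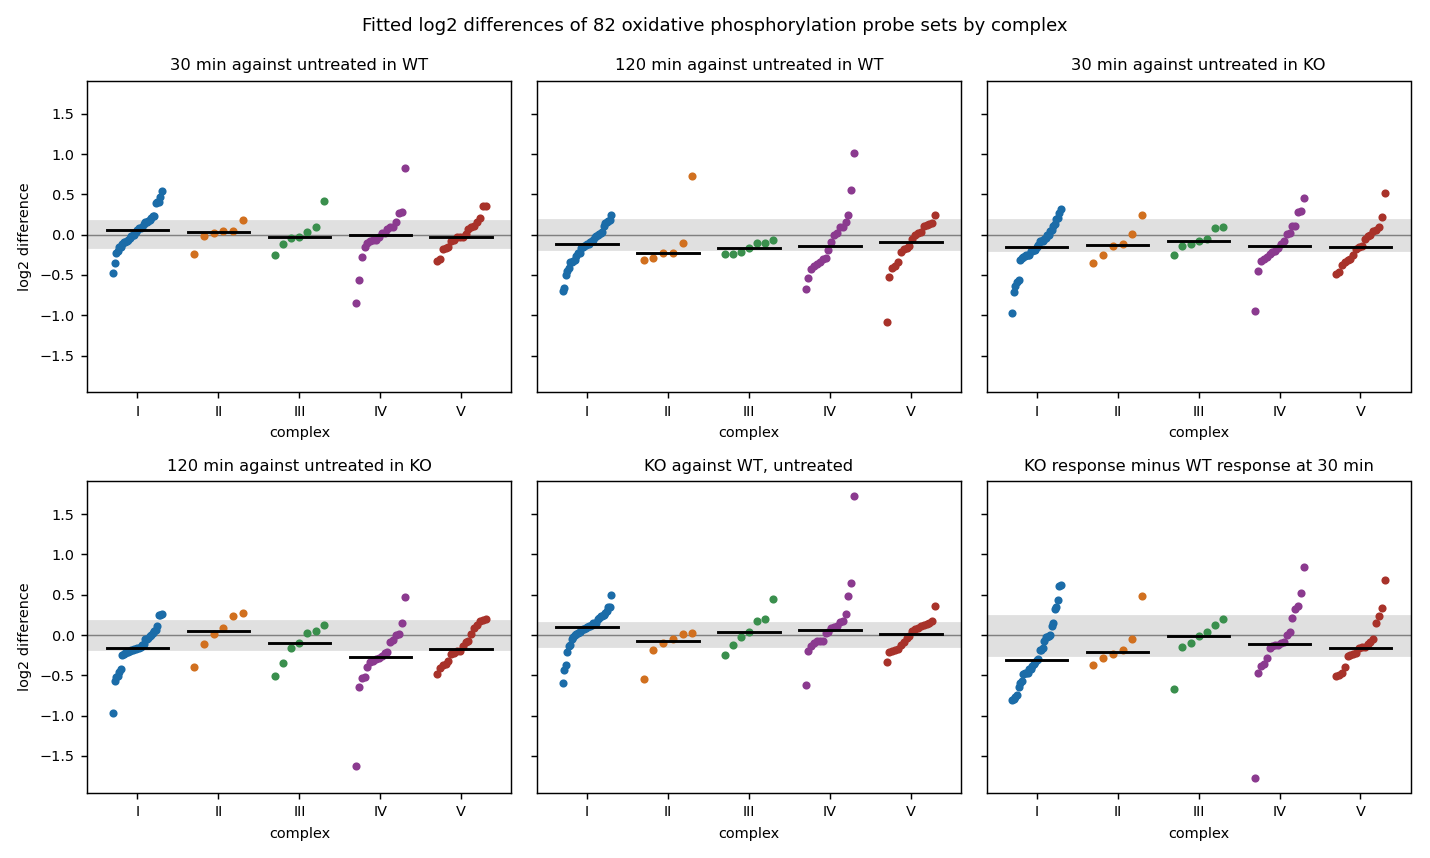
Fitted log2 differences (vertical axis) of the 82 tested probe sets in 6 comparisons, ordered by size within complexes I to V (horizontal axis). Each point is 1 probe set, black lines are medians, and the grey band spans the lower to upper quartile of all 8938 probe sets. Most points lie within or near the band. The medians at 120 min in WT are below 0 in each complex, from -0.23 in complex II to -0.097 in complex V. Under other settings complex IV turned to 0.038 (brown fat covariate) and complex V came to -0.0064 (without WT untreated B).

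Complex I has core subunits, some of which carry the flavin and the iron-sulfur clusters, and many accessory subunits around them. The core is represented by 5 tested probe sets of 4 genes and the accessory subunits by 26 of 24 genes. None was called in any comparison. For the accessory subunits, the KO response minus the WT response at 30 min was below 0 in 23 of 26. Their median was -0.37, against -0.012 for all tested probe sets. For the 5 core probe sets the same difference was below 0 in 2, with a median of 0.35. These are of only 4 genes, and the 2 probe sets of Ndufv2, including that of the _f type, lay on different sides of 0. The core median was not computed with arrays left out. Without WT 30 min B the accessory median was -0.13. In KO alone, the accessory median at 30 min was -0.194, and it was -0.053 without KO 30 min A. KO 30 min A had the lowest mean correlation with the other arrays (0.9076). It gave the lowest value for 18.1% of all tested probe sets and the highest for 15.0%. Accessory subunits lay above 0 for KO against WT in untreated nodes in 21 of 26. The median was 0.12, against 5.21e-05 for all tested probe sets. The difference of responses subtracts this untreated difference, so the 2 are not separate results.

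Ndufc1, an accessory subunit, had the smallest p of complex I at 120 min in KO. Its intensities were 819.5, 621.8 and 650.0 in untreated KO, 219.5 and 542.7 at 30 min, and 285.9 and 397.6 at 120 min. All 4 irradiated KO values lay below the untreated KO values. The lower value at 30 min, 219.5, was that of KO 30 min A. The log2 difference was -0.98 ± 0.44 (SE) at 30 min and -0.97 ± 0.44 at 120 min, with limma adjusted p of 0.592 and 0.690. In WT it read 570.4, 454.3 and 611.0 untreated, 236.9 and 939.6 at 30 min, and 352.7 and 463.3 at 120 min, and the groups overlapped.

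Ndufab1, the mitochondrial acyl carrier protein, which serves in complex I and in mitochondrial fatty acid synthesis, read 938.2, 680.4 and 830.0 in untreated KO. After IR it read 380.6 and 594.9 at 30 min and 410.3 and 677.6 at 120 min, again without overlap. The lower value at 30 min, 380.6, was that of KO 30 min A. The differences were -0.72 ± 0.28 (adjusted p = 0.536, limma) and -0.58 ± 0.28 (adjusted p = 0.699). In WT, Ndufab1 read 756.5, 626.6 and 903.0 untreated, 616.6 and 1048.8 at 30 min, and 468.5 and 660.1 at 120 min, and the groups overlapped.

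Ndufa2, an accessory subunit, had the smallest p of complex I at 30 min in KO, at -0.64 ± 0.24 (adjusted p = 0.529, limma). Its values were 342.7, 418.6 and 364.0 untreated against 166.1 and 332.1, and KO 30 min A was much the lower of the 2. Ndufb7, also accessory, had the smallest p at 30 min in WT, at 0.47 ± 0.17 (adjusted p = 0.854). It read 860.8, 1146.7 and 1104.4 untreated and 1340.4 and 1635.1 at 30 min, without overlap. Ndufa1 had the smallest p for the KO response minus the WT response at 30 min, at -0.80 ± 0.33 (adjusted p = 0.868). It was dim, from 13.2 to 67.8 over the 14 arrays.

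Probe sets of the same gene did not always move together. Ndufv2, a core subunit with an iron-sulfur cluster, differed by -0.66 ± 0.25 at 120 min in WT on a probe set of the _f type (adjusted p = 0.478, limma) and by -0.15 ± 0.17 on the other (adjusted p = 0.863). Between untreated KO and WT, the same 2 probe sets gave -0.60 ± 0.22 (adjusted p = 0.858) and 0.087 ± 0.15 (adjusted p = 0.988), on different sides of 0. Of the 100 probe sets, 37 have a suffix (_f, _r, _i, _g or _s) with which Affymetrix marks sets that break a design rule or may cross-hybridize, and 20 genes have 2 or more probe sets. Of the 10 genes with 2 or more tested probe sets, each gave opposite signs in at least 1 comparison, and in 4 of them (Ndufv2, Cox4i1, Cox6b2 and Cox6c) a probe set of such a pair had an unadjusted p under 0.05. Atp5d, the F1 delta subunit, had 4 tested probe sets, which were split in all 8 comparisons. Ndufa3, an accessory subunit, had on one of its probe sets the smallest p of complex I in the average over conditions, at 0.26 ± 0.11 (adjusted p = 0.759), and in the difference of responses at 120 min, at 0.56 ± 0.27 (adjusted p = 0.737). At 120 min in WT that probe set differed by -0.51 ± 0.19 (adjusted p = 0.489) and the other by -0.32 ± 0.26 (adjusted p = 0.801).

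Some complex I members varied little between arrays. Ndufv1, which binds NADH, read 1629.2 to 1972.2 on all 14 arrays. Ndufb11, an accessory subunit, read 981.1 to 1327.1 and had the smallest range of the 82 probe sets on the fitted scale, 0.28 log2 units. The median range over arrays was 0.81 for the members and 0.96 for all tested probe sets.

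Complex II is succinate dehydrogenase, shared with the TCA cycle, and all 6 of its probe sets were tested. Sdha, the flavin subunit, read 151.0, 168.0 and 190.3 in untreated WT, 163.4 and 181.1 at 30 min, then 141.8 and 159.0 at 120 min. The KO values were 163.5, 167.8 and 154.2 untreated, 160.8 and 168.2 at 30 min, then 157.1 and 189.4 at 120 min. The groups overlapped throughout. The limma interval (95%) for 120 min against untreated was -0.45 to 0.24 in WT and -0.25 to 0.43 in KO, on the log2 scale. Sdhb, the iron-sulfur subunit, ranged from 666.1 to 1105.2 over the 14 arrays.

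Of the membrane anchors, Sdhc read 883.6 to 1516.2 over the 14 arrays, with the smallest p of complex II in KO at 30 min (-0.35 ± 0.23, adjusted p = 0.688) and at 120 min (-0.39 ± 0.23, adjusted p = 0.762), by limma. Sdhd read 964.3, 966.9 and 791.6 in untreated WT and 666.4, 492.6 and 702.9 in untreated KO. These groups did not overlap, and the log2 difference, KO minus WT, was -0.55 ± 0.21 (adjusted p = 0.858, limma). It was -0.27 ± 0.14 as an average over the 3 conditions (adjusted p = 0.822). At 30 min Sdhd differed by -0.25 ± 0.23 in WT and by 0.24 ± 0.23 in KO, and the difference between these was 0.49 ± 0.33 (adjusted p = 0.874).

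Sdhaf1, which helps insert iron-sulfur clusters into Sdhb, had the largest positive difference of the members at 120 min in WT after Cox6a2. Its only probe set has the suffix _f. It read 252.4, 170.1 and 202.8 untreated, 160.5 and 246.2 at 30 min, and 393.5 and 340.9 at 120 min. Both 120 min values exceeded all other WT values, and the log2 difference was 0.73 ± 0.26 (adjusted p = 0.448, limma). In KO it read 146.5, 165.4 and 233.5 untreated, 114.9 and 189.8 at 30 min, and 194.9 and 237.8 at 120 min, with overlap. The difference between the responses at 120 min was -0.49 ± 0.37 (adjusted p = 0.881), and the average over conditions, KO minus WT, was -0.42 ± 0.16 (adjusted p = 0.680). Sdhaf2, which helps attach the flavin to Sdha, had the smallest p of complex II in the difference of responses at 120 min, at 0.50 ± 0.28 (adjusted p = 0.782).

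All 7 probe sets of complex III lay below 0 at 120 min in WT, the only complex for which this was so. The differences were small, from -0.24 to -0.073, with a median of -0.17, and none had p under 0.05. Without WT untreated B, and likewise without WT untreated C, 6 of 7 lay below 0. With the brown fat covariate the median was -0.069. At 120 min in KO, 4 of 7 lay below 0. Uqcrq, a small subunit, had the smallest p at 120 min in WT. It read 1716.1, 2021.9 and 1928.8 untreated against 1856.9 and 1670.2 (-0.17 ± 0.16, adjusted p = 0.830, limma). On the deposited scale these values overlapped, and after quantile normalization both irradiated values lay below the untreated ones. Uqcr10 had the smallest p at 120 min in KO. It read 872.1, 955.7 and 1049.4 untreated and 731.9 and 764.7 at 120 min, without overlap (-0.35 ± 0.16, adjusted p = 0.690). Its KO response minus WT response at 120 min was -0.28 ± 0.23 (adjusted p = 0.892).

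Uqcr11, another small subunit, had the smallest p of complex III at 30 min in both genotypes, in their difference, and in untreated KO against WT (0.45 ± 0.25, adjusted p = 0.965, limma). It differed by 0.41 ± 0.28 in WT (adjusted p = 0.980, limma) and by -0.26 ± 0.28 in KO (adjusted p = 0.821), a difference between responses of -0.67 ± 0.39 (adjusted p = 0.868). Its WT 30 min values were 389.1 and 761.7, and replicate B was the highest of the 14 arrays. Uqcrh, which binds cytochrome c1, had the smallest p of the complex in the average over conditions, at 0.29 ± 0.15 (adjusted p = 0.822).

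Complex IV held the ubiquitous forms, the muscle forms, 2 testis forms, Cox6b2 and Cox8c, and the supercomplex factor Cox7a2l. Of the 10 tested ubiquitous probe sets, 7 lay below 0 at 120 min in WT (median -0.14) and 7 at 120 min in KO (median -0.20). Cox7b, a ubiquitous subunit, was the member with the smallest p in KO at both times, among the 82. It read 1208.7, 1454.8 and 1236.4 untreated, 884.7 and 1007.7 at 30 min, and 883.9 and 956.0 at 120 min. All 4 irradiated values lay below the 3 untreated ones. The log2 difference was -0.45 ± 0.17 at 30 min (adjusted p = 0.512, limma) and -0.53 ± 0.17 at 120 min (adjusted p = 0.605). In WT it read 1078.8, 1378.9 and 1389.2 untreated, 1125.4 and 1420.1 at 30 min, and 1138.0 and 917.4 at 120 min. At 120 min the WT values overlapped the untreated ones on the deposited scale and lay below all of them after quantile normalization, with a log2 difference of -0.36 ± 0.17 (adjusted p = 0.585). The KO response minus the WT response was -0.38 ± 0.24 at 30 min (adjusted p = 0.868) and -0.17 ± 0.24 at 120 min (adjusted p = 0.951), so a lower Cox7b was not shown to be particular to KO. The 2 KO comparisons share the same untreated arrays.

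Cox4i1, the ubiquitous form of the subunit that regulates the enzyme, had 2 probe sets. On the probe set with no suffix it read 137.2, 41.4 and 111.5 in untreated WT, 26.6 and 41.8 at 30 min and 64.1 and 91.5 at 120 min. In KO the same probe set read 138.2, 132.0 and 211.5 untreated, 160.0 and 85.0 at 30 min, and 79.4 and 124.9 at 120 min. At 30 min in WT it differed by -0.85 ± 0.34 (adjusted p = 0.956, limma), with overlapping values, while the probe set with suffix _f gave 0.27 ± 0.33 (adjusted p = 0.986). The average over conditions, KO minus WT, was 0.67 ± 0.20 (adjusted p = 0.444), the smallest p of any member in that comparison. The _f probe set gave 0.074 ± 0.20 (adjusted p = 0.979), and read 64.1 to 226.5 over the 14 arrays. Cox4i2, its paralog, was not analysed here.

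Cox6b1, a subunit that faces the intermembrane space, has only a probe set with suffix _r. It read 152.1, 110.2 and 92.4 in untreated WT and 58.0 and 74.0 at 120 min, without overlap (-0.54 ± 0.21, adjusted p = 0.500, limma). Cox6a1 and Cox7a2, the ubiquitous counterparts of muscle forms, were not called in any comparison. Cox6a1 (suffix _f) read 2309.0 to 3401.0 over the 14 arrays and Cox7a2 1554.6 to 2341.0. The interval (95%) of the limma difference at 120 min in WT was -0.25 to 0.44 for Cox6a1 and -0.38 to 0.37 for Cox7a2. At 30 min in KO, Cox6a1 read 3340.6 and 3401.0 against 2476.1, 2309.0 and 2901.7 untreated, without overlap (0.30 ± 0.16, adjusted p = 0.642). The testis form Cox6b2 gave opposite signs on its 2 tested probe sets in untreated KO against WT, at -0.61 ± 0.24 with suffix _f (adjusted p = 0.899) and 0.49 ± 0.23 with suffix _r (adjusted p = 0.921). The _f probe set also had the smallest p of complex IV in the difference of responses at 30 min, at 0.85 ± 0.39 (adjusted p = 0.868), where the other gave -0.47 ± 0.36 (adjusted p = 0.886). At 120 min in WT the pair gave -0.67 ± 0.27 (adjusted p = 0.534) and 0.022 ± 0.26 (adjusted p = 0.988). Cox6c, a ubiquitous subunit, likewise gave -0.39 ± 0.17 with suffix _f (adjusted p = 0.554) and 0.55 ± 0.31 with suffix _r (adjusted p = 0.674) at 120 min in WT.

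The muscle form Cox6a2 had the largest range of the 82 probe sets, 3.56 log2 units. It read 86.6, 19.7 and 27.3 in untreated WT, 161.0 and 48.9 at 30 min, and 149.2 and 80.6 at 120 min. In KO it read 353.9, 28.9 and 570.3 untreated, 79.8 and 113.2 at 30 min, and 46.6 and 45.4 at 120 min. Thus KO untreated A and C stood far above the other 12 arrays, and KO untreated B lay among the untreated WT values. The fitted difference of untreated KO from WT was 1.73 ± 0.68 (adjusted p = 0.880, limma), and at 120 min in KO it was -1.62 ± 0.76 (adjusted p = 0.690). The difference between the responses at 120 min was -2.63 ± 1.07 (adjusted p = 0.654).

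The same 2 arrays carried the most skeletal muscle RNA by the marker sums given above. The 27 tested markers had a median log2 difference of 1.30 between untreated KO and WT. With the mean of the muscle markers as a covariate, the Cox6a2 difference was -0.33 (adjusted p = 0.967, limma), and without KO untreated A and C it was -0.31 (adjusted p = 0.999). At 120 min in KO the value was 0.43 with the covariate and 0.42 without the 2 arrays, so the direction turned. Without KO untreated B, in contrast, Cox6a2 was called in untreated KO against WT, at 2.76 with an adjusted p of 0.0390. As KO untreated A and C form a cluster of their own, the relation of Cox6a2 to the muscle marker mean was computed over the other 12. There Pearson's r was 0.56 (permutation p = 0.0565, adjusted p = 0.336 over 12 relations) and Spearman's rho was 0.57 (permutation p = 0.0592, adjusted p = 0.301).

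Cox7a1 and Cox8b did not share the Cox6a2 pattern. Cox7a1 read 156.7, 167.4 and 175.3 in untreated WT, 123.0 and 189.2 at 30 min, and 97.5 and 147.2 at 120 min. In KO it read 172.3, 145.4 and 196.3 untreated, 148.4 and 142.0 at 30 min, and 90.5 and 189.2 at 120 min. WT 120 min A and KO 120 min A were the lowest of the 14 arrays, and the partner array in the KO group was among the highest. The log2 difference at 120 min was -0.34 ± 0.25 in WT (adjusted p = 0.791, limma), without overlap, and -0.29 ± 0.25 in KO (adjusted p = 0.854). Untreated KO and WT differed by 0.026 ± 0.23 (adjusted p = 0.992), with an interval (95%) of -0.47 to 0.52.

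Both Cox8b probe sets were low on the same 2 arrays. With suffix _r, Cox8b read 311.8, 505.5 and 467.8 in untreated WT, 387.8 and 520.1 at 30 min, and 287.6 and 404.9 at 120 min. It read 525.6, 448.5 and 557.6 in untreated KO, 458.8 and 396.7 at 30 min, and 252.3 and 550.7 at 120 min. On the other probe set the WT values were 134.4, 119.9 and 101.3 untreated, 85.8 and 137.9 at 30 min, then 63.0 and 109.2 at 120 min. In KO that probe set read 160.0, 115.7 and 137.4 untreated, 131.5 and 106.8 at 30 min, then 84.6 and 147.7 at 120 min. The groups overlapped in every comparison, and all limma adjusted p were at least 0.796.

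The 6 brown fat markers on the array summed to 1294.6 on WT 120 min A and 1266.2 on KO 120 min A, the lowest of the 14 arrays. The other arrays ranged from 1619.2 to 2745.9. Nearly all of the sum came from Ucp1, the uncoupling protein, and Cidea, a lipid droplet protein, which were the 2 tested, and Elovl3, Dio2, Zic1 and Ppargc1a were dim. Over 14 arrays, the mean of these markers and Cox7a1 had r = 0.77 (permutation p = 0.00128, adjusted p = 0.00512) and rho = 0.58 (permutation p = 0.0313, adjusted p = 0.0938). For Cox8b, r was 0.78 (permutation p = 0.00093, adjusted p = 0.00512) with rho = 0.67 on the _r probe set and 0.74 (permutation p = 0.00283, adjusted p = 0.00849) with rho = 0.67 on the other. Both rho values had an adjusted permutation p of 0.0464. Without WT 120 min A and KO 120 min A, r was 0.46, 0.51 and 0.45 (permutation p = 0.128, 0.0898 and 0.140), so the relations rest on those arrays. As deviations from group means, over 14 arrays, r was 0.78, 0.82 and 0.77. The relations were not limited to brown fat markers. With the mean of 11 general adipocyte markers, r over 14 arrays was 0.678 for Cox7a1 (permutation p = 0.00788, adjusted p = 0.0189), 0.585 for Cox8b on the _r probe set (permutation p = 0.0274, adjusted p = 0.0469) and 0.602 on the other (permutation p = 0.0228, adjusted p = 0.0456). The corresponding rho values were 0.433, 0.398 and 0.437 (adjusted permutation p = 0.187, 0.212 and 0.187), and without the same 2 arrays r was 0.243, 0.0755 and 0.232. KO 120 min A also had the lowest adipocyte sum (5577.6) and the lowest muscle sum (2002.2) of the 14 arrays. These 12 relations, 4 probe sets by 3 marker lists, were chosen after the values were seen. The part of muscle and fat in the muscle isoform values was not tested beyond these covariates and left-out arrays.

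**Figure D3:**
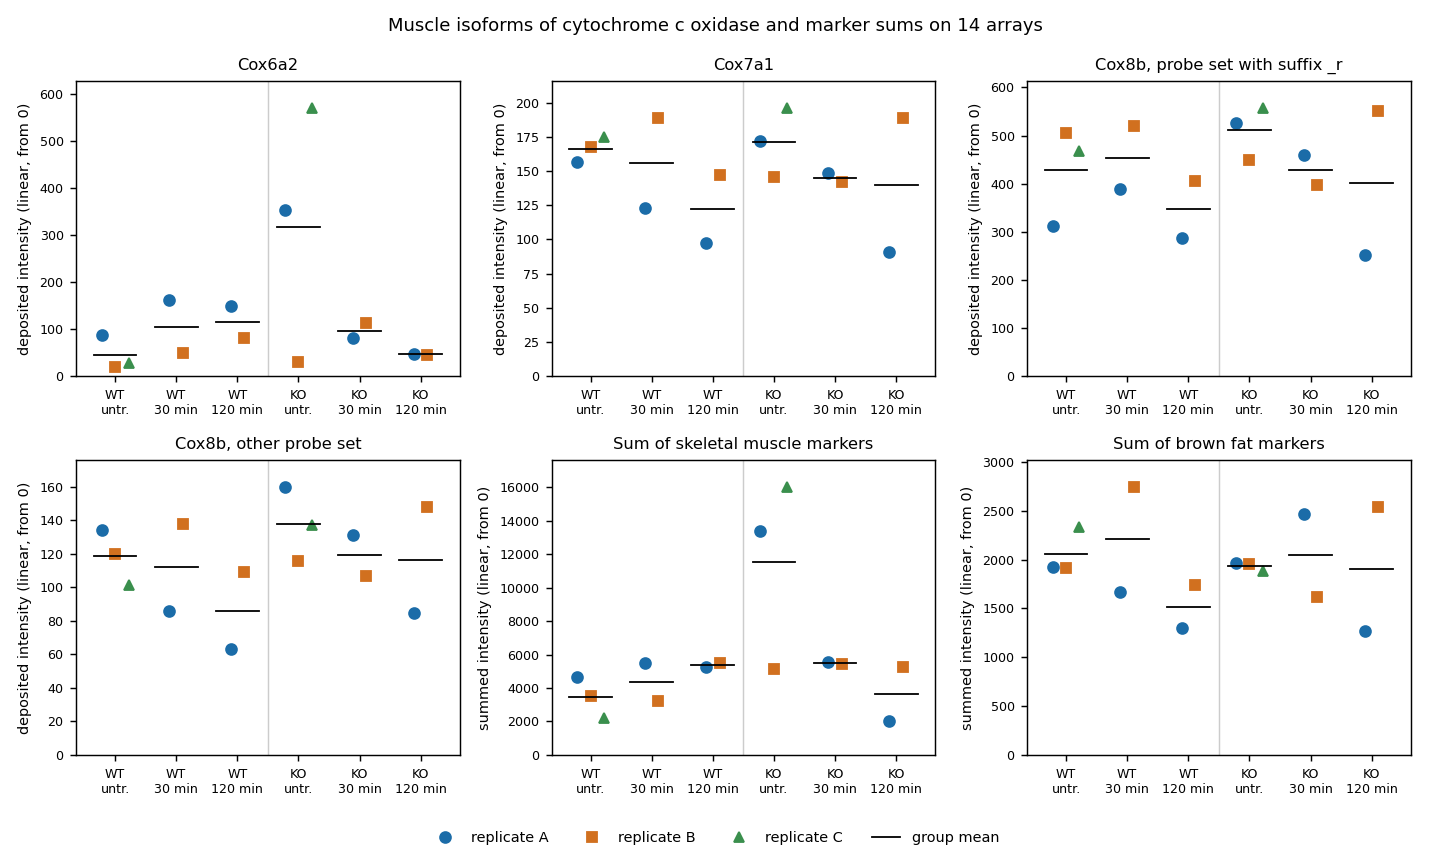
Deposited intensity (vertical axes, linear from 0) of the 4 muscle isoform probe sets and the summed intensity of 33 skeletal muscle markers and 6 brown fat markers on each of the 14 arrays, by group. Points are arrays, coloured by replicate letter, and lines are group means. Cox6a2 and the muscle sum are high on KO untreated A and C, and Cox7a1, Cox8b and the brown fat sum are low on WT 120 min A and KO 120 min A.

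Complex V held the called member. Atp5mpl encodes a small proteolipid in the membrane part of ATP synthase. Its intensities were 959.9, 1073.5 and 1345.2 in untreated WT, 1278.3 and 969.4 at 30 min, and 670.2 and 425.8 at 120 min. Both 120 min values lay below every other WT value. It fell by 1.09 ± 0.20 on the log2 scale (adjusted p = 0.0356, limma), a fold of 0.471. In KO its intensities were 949.2, 1148.7 and 1082.6 untreated, 715.7 and 818.2 at 30 min, and 929.1 and 945.8 at 120 min. Both irradiated KO groups lay below the untreated group, with -0.46 ± 0.20 at 30 min (adjusted p = 0.589) and -0.20 ± 0.20 at 120 min (adjusted p = 0.879).

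For Atp5mpl the KO response minus the WT response at 120 min was 0.89 ± 0.29 (adjusted p = 0.486, limma), which did not pass the threshold. The WT call ended in 10 of the 14 fits that left out 1 array, with adjusted p between 0.0368 and 0.576 and values between -1.35 and -0.82. It also ended in 9 of 11 other settings. The B cell marker sum was also low on the same 2 arrays, as given above, and was 2724.0 and 3567.4 at 120 min in KO. The T cell marker sum was 778.1 and 798.3 on these 2 arrays, against 1114.6 to 1220.3 in untreated WT and 1006.4 to 1176.0 at 120 min in KO. Cd22, a B cell surface receptor, was called at 120 min in WT at -1.62 (adjusted p = 0.0053, limma). Cd22 read 103.0, 80.6 and 91.4 in untreated WT and 7.0 and 5.7 at 120 min. Its fall was not typical of the B cell list. Cd79a read 529.2, 654.4 and 520.8 untreated and 384.6 and 233.4 at 120 min. The values of Spib, Blnk and Pax5 overlapped between these groups, and those of the other B cell markers were lower without overlap. The part of cell composition in the Atp5mpl value was not tested.

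Among the other parts of ATP synthase, the catalytic F1 head, the c ring, the peripheral stalk and the remaining membrane subunits, none was called. The 8 F1 probe sets had a median of 0.012 at 120 min in WT and -0.14 at 120 min in KO. Atp5g2, a c ring subunit, read on its tested probe set (suffix _f) 270.0, 189.2 and 232.7 in untreated WT and 133.7 and 157.6 at 120 min, without overlap (-0.53 ± 0.22, adjusted p = 0.551, limma). In KO it had the smallest p of complex V at 120 min, with 198.5, 268.6 and 263.8 untreated and 131.3 and 195.9 at 120 min (-0.49 ± 0.22, adjusted p = 0.690). Atp5g1, which encodes the same mature c protein, had the smallest p of complex V at 30 min in WT (0.35 ± 0.22, adjusted p = 0.980) and in the difference of responses at that time (-0.51 ± 0.31, adjusted p = 0.868). Atp5e, the F1 epsilon subunit, had it in untreated KO against WT (0.36 ± 0.20, adjusted p = 0.965), and Atp5l, a membrane subunit, in the average over conditions (-0.13 ± 0.094, adjusted p = 0.884).

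**Figure D4:**
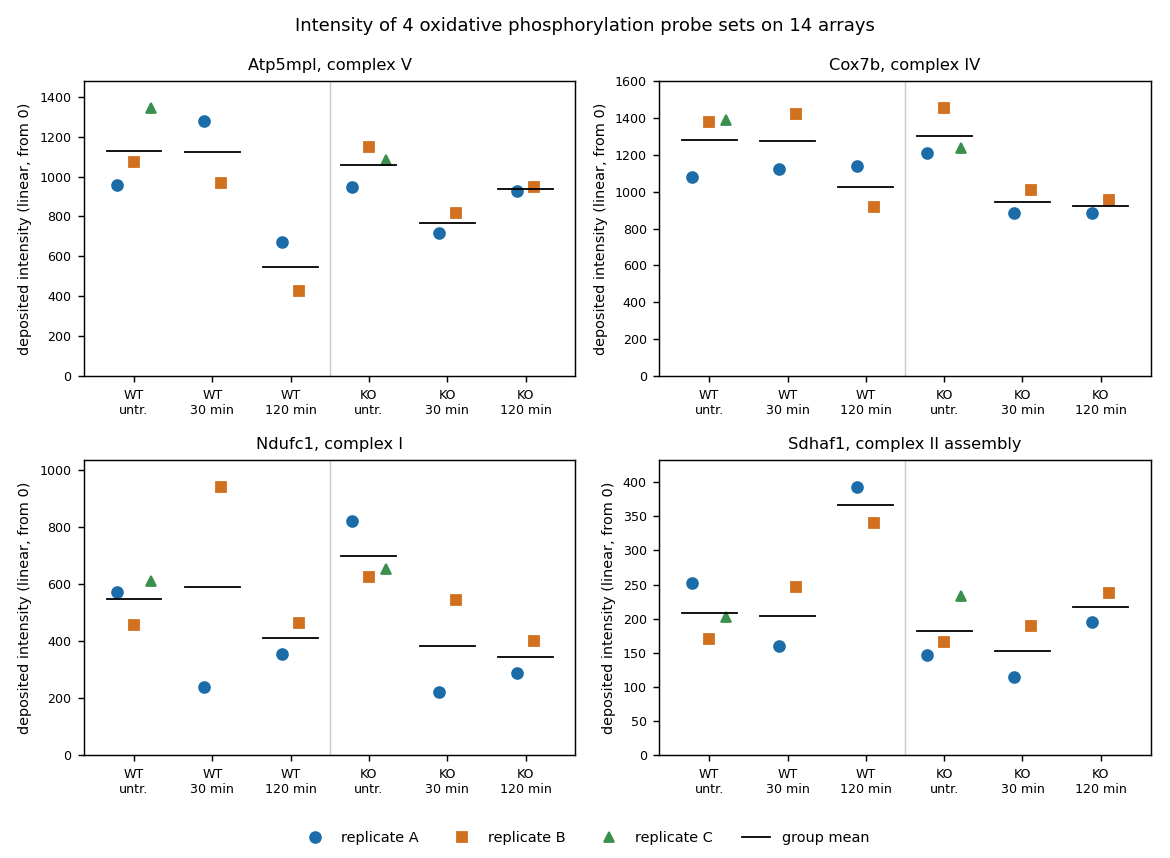
Deposited intensity (vertical axes, linear from 0) of Atp5mpl, Cox7b, Ndufc1 and Sdhaf1 on each of the 14 arrays, by group. Points are arrays, coloured by replicate letter, and lines are group means. Atp5mpl is lowest at 120 min in WT, at 670.2 and 425.8, and Sdhaf1 is highest there, at 393.5 and 340.9.

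After quantile normalization, replicate A was lower than replicate B in all 4 irradiated groups for 17 of the 82 probe sets (20.7%), against 592 of 8938 (6.62%). The reverse order held for 2 (2.44%), against 556 (6.22%). The 17 probe sets came from all 5 complexes, with 7 in complex I and 5 in complex V. Among them were Ndufc1, Ndufab1, Ndufa2, Sdha and Sdhd, which kept this order on the deposited scale. The labels do not say what the letters share.

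Other genes of energy metabolism gave no call. Of 16 tested genes for respiratory assembly, electron carriers and exchange, 16 for pyruvate dehydrogenase and the TCA cycle, 13 for glycolysis, 12 for fatty acid oxidation and 10 for mitochondrial gene regulation, 0 were called in any of the 8 comparisons by limma. At 120 min in WT, 0, 0, 2, 1 and 0 of them were lower and 0, 0, 0, 0 and 1 higher at unadjusted p under 0.05. The 1 higher regulator was Gabpb1, a subunit of the ETS factor GABP (0.65 ± 0.16, adjusted p = 0.147). Its KO response minus WT response at 120 min was -0.87 ± 0.23 (adjusted p = 0.338). Hk1, the hexokinase that starts glycolysis, gave -0.95 ± 0.27 at 120 min in WT (adjusted p = 0.234). At 120 min in KO, Ldhb, a lactate dehydrogenase subunit, gave -0.76 ± 0.20 (adjusted p = 0.487) and Idh3b, a TCA cycle isocitrate dehydrogenase subunit, -0.84 ± 0.23 (adjusted p = 0.529). Lrpprc, which stabilizes mitochondrial mRNA, gave 0.74 ± 0.26 at 30 min in KO (adjusted p = 0.485), Cyc1, the cytochrome c1 of complex III, gave -0.45 ± 0.20 at 120 min in KO (adjusted p = 0.679), and Acadm, of fatty acid oxidation, -0.42 ± 0.17 at 120 min in WT (adjusted p = 0.535). The median difference at 120 min in WT was -0.18, -0.019, 0.040, -0.12 and -0.081 in the order of the lists above, beside -0.13 for the oxidative phosphorylation probe sets.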

How the data were processed

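The deposited table holds 1 intensity per probe set and array, a linear scale on which each array had a trimmed mean near 150.1 and a median between 61.0 and 80.4. The authors deposited these intensity values from software not given in the sources used here. Precision is limited by the number of arrays. Control probe sets (66) were left out of the tests. Values were taken as log2(value + 32), quantile-normalized and fitted with limma 3.58.1 (R 4.3.3) in 1 model of 6 group means over 14 arrays (8 residual degrees of freedom), with Benjamini-Hochberg adjustment over 8938 probe sets in each of 8 comparisons. The test was checked on simulated data with independent noise, with changes placed on brighter probe sets at 120 min in WT. It recovered 52 of 87 changes of 1 log2 unit (59.8%) and 112 of 113 changes of 2. Changes of 1 log2 unit or less can therefore be missed. Probe sets were named by the platform annotation. Array relations used 100000 permutations, two-sided (Python 3.11.15, scipy 1.17.1). Members, lists and tests were chosen with earlier results of these data known. Named are every called member, the isoforms and their paralogs, complex II, the smallest p of each complex and comparison, probe sets of a gene that differ in direction where 1 has an unadjusted p under 0.05, and of each other list the genes with the smallest p. Ndufab1, Ndufv1, Ndufb11 and Atp5d were chosen after their values were seen. Alternatives were no quantile normalization, other offsets, filters and floors, fewer groups, a replicate block, marker covariates and left-out arrays.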

Additional observations from a re-analysis of the deposited data

How the results depend on the processing

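The call of Atp5mpl at 120 min in WT, the 1 member called, was lost (0 members called) in 9 of 11 settings. These were no quantile normalization (log2 difference -1.02, adjusted p = 0.0721, limma), an offset of 16 (-1.11, 0.0548), a floor of 32 (-1.13, 0.0514), only the groups compared (-1.07, 0.204), the muscle covariate (-1.05, 0.103), the 3 arrays of lowest correlation left out (-1.17, 0.0996), and the replicate block (-1.03, 0.113). They also included 2 settings chosen after seeing the data, the brown fat covariate (-1.20, 0.0593) and KO untreated A and C left out (-1.09, 0.0901). It was kept with no filter and with a filter at the 60th percentile (1 member called each). Leaving out single arrays gave 0 to 1 members called at 120 min in WT, 0 to 1 at 30 min in KO (Ndufa2 without KO 30 min B), 0 to 1 in untreated KO against WT and 0 to 1 for the difference of responses at 120 min (Cox6a2 without KO untreated B in both). The Ndufa2 value (-1.09, adjusted p = 0.0374, limma) sets the lone KO 30 min A, assumed to vary like the arrays of the other groups, against untreated KO. The cause was not tested. In the other 4 comparisons 0 members were called under every setting run. No median of the members moved by more than the spread between arrays of a group (SD 0.181). That spread is larger than every main median in size (the largest was -0.16, at 120 min in KO). A shift could therefore vanish without counting as moved, and this measure does not show that the medians are stable. Of the 8 medians, 4 changed sign under at least 1 setting. These were 30 min in WT (from -0.0997 to 0.148), 120 min in KO (-0.251 to 0.00191), the average over conditions (-0.0409 to 0.0446) and the difference of responses at 120 min (-0.124 to 0.121).

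Same-letter arrays did not deviate together (31 pairs, r from -0.12 to 0.084, none above 0.1), so the letters were not taken to pair samples. That check was over all tested probe sets, and the order of the letters among the members is given above. The replicate block called 0 members in each comparison.

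Over all probe sets, the number called ranged from 13 to 60 at 120 min in WT, where the main value was 46. It ranged from 5 to 11 (main 9) at 30 min in WT, 0 to 240 (0) at 30 min in KO, with the 240 from that fit with a lone array, 0 to 11 (0) at 120 min in KO and 0 to 7 (0) in untreated KO against WT. For the average it was 9 to 43 (15), and for the differences of responses 0 to 28 (7) and 3 to 18 (12). Dim probe sets, 18 of the 100, were left out of the main test and entered only the setting with no filter.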
